A study of Homo sapiens and Mus musculus with 8 samples.

Results

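The genes described here are those of calcineurin and NFAT signalling, with the Ca2+/calmodulin kinase gene Camk2d beside them. They were found by gene symbol, ignoring letter case, in the authors' 5 tables of comparisons. Of 10 genes sought, 9 were found, out of 15966 genes with a usable row in any of the 3 mouse tables. These were Nfatc1, Nfatc2, Nfatc3, Nfatc4, Nfat5, Rcan1, Ppp3ca, Ppp3cc and Camk2d, and Ppp3cb was not analysed here. The tables for both UV times held 8 of them, and that for the Orai1 clone held 9. In each human table, 0 of 420 rows matched. Both human tables hold the same 420 symbols, so the absence of a member there says nothing of its change.

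The study profiled RNA of 3 melanoma cell lines in 8 samples, with 1 sample per group. B16N is a mouse melanoma line. Its 4 samples were wild-type cells under UV exposure collected at week 2, wild-type cells under UV exposure collected at week 5, a clone overexpressing Orai1 (labelled day 0, with Orai1 overexpression as its sole labelled treatment) and untreated wild-type cells (labelled day 0). The clone came from cells transfected with CFP-tagged wild-type Orai1, selected with G418, sorted and grown from single cells, so it is 1 clone and Orai1 cannot be told apart from clonal origin. UV exposure likewise cannot be told apart from weeks in culture. The UV-exposed WM983 and UACC257 samples (labelled wild type, week 2) and their untreated controls (wild type, day 0) came from human melanoma lines. Orai1 itself was not analysed here, so its level in the clone was not checked.

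Calcineurin is a phosphatase that Ca2+ and calmodulin switch on, classically after Ca2+ enters through store-operated channels whose pore is Orai1. It removes phosphates from the NFATc transcription factors, which then enter the nucleus, and kinases that put the phosphates back send them out again. Rcan1 binds and inhibits calcineurin, and its gene is itself a known NFAT target, so it is often read as a sign of NFAT activity. In human melanoma cells, NFATc2 is known for links to survival and invasion.

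The tables give a log2 fold change, a test statistic and a p-value per gene, and no counts or levels. Depth is therefore unknown, and no value per sample can be shown. All changes below are log2 changes of the treated sample against untreated B16N. The standard error (SE) is the change divided by the deposited test statistic, and intervals are 95% normal intervals from it. A gene is said to have risen or fallen where the deposited p-value, adjusted by Benjamini-Hochberg over the whole table, was under 0.05. With 1 sample per group these tests compare libraries and not conditions. The untreated library served all 3 comparisons, so their changes share its error. Of the B16N cells' own type, all 7 pigment cell markers sought had a row in each table. Of the 6 with values of their own, 4 rose after 2 weeks and 5 after 5 weeks of UV, and in the clone 2 rose (Pmel and Mlana) and 1 fell (Dct). Of the fibroblast, immune, endothelial and keratinocyte markers, the immune marker Lyz2 alone had a value of its own, at 0.38 (SE 0.94) after 2 weeks, 3.47 (SE 0.70) after 5 weeks and 2.78 (SE 0.64) in the clone per the authors' deposited tables. The part of these markers in the results was not tested.

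Nfatc2 RNA was 101-fold lower in the Orai1 clone, and after UV its change did not pass the test. The UV intervals were -0.28 to 0.11 after 2 weeks and -0.57 to 0.065 after 5 weeks, the latter mostly below 0. Nfatc1 and Rcan1 fell in the clone as well, and Camk2d rose. After UV, no calcineurin or NFAT gene passed the test at either time. In all, 4 of 9 measured members changed in the clone, 3 lower and 1 higher, where 22.0% of all genes in that table changed, 11.6% lower and 10.3% higher. The share called depends on precision, and of genes with an SE of at most 0.5, 32.6% changed, against 4 of 7 members within that limit. At least 2-fold changes were found for 2 members, Nfatc2 and Nfatc1, and for 6.79% of all genes. After 2 weeks 0 of 8 members changed, where 7.67% of all genes did, and 0 had an unadjusted p under 0.05. After 5 weeks 0 of 8 members changed, where 4.78% of all genes did, and 1 had an unadjusted p under 0.05. The median change of the 8 members with values of their own was 0.18 after 2 weeks, 0.13 after 5 weeks and 0.29 in the clone. Over all genes with values of their own the medians were 0.020, 0.0069 and 0.033.

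**Figure D1:**
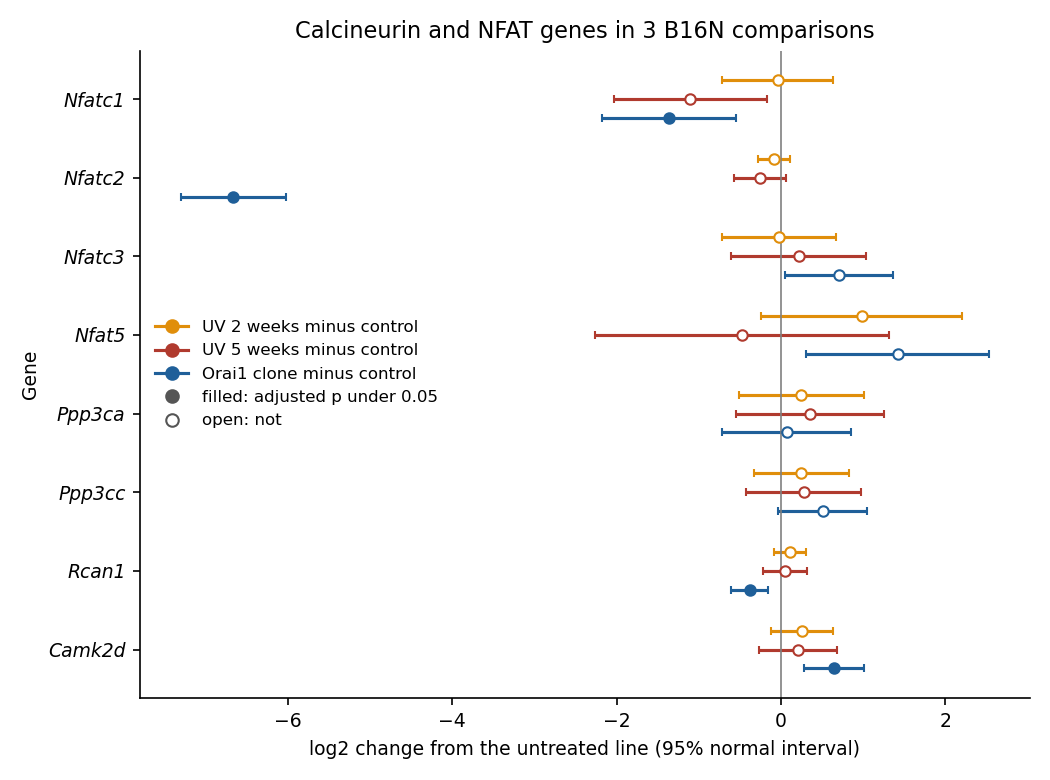
Log2 change of each gene (rows) against untreated B16N (horizontal axis) after 2 weeks of UV, after 5 weeks of UV and in the Orai1 clone, 1 sample per group. Points are changes from the authors' deposited tables, bars are 95% normal intervals and filled points passed an adjusted p of 0.05. Nfatc2 in the clone stands at -6.66, and no point of either UV time is filled.

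Of the NFAT transcription factors, Nfatc2 had the largest change by far. In the authors' deposited table for the clone it fell by 6.66 on the log2 scale (SE 0.33, adjusted p = 7.20e-89). This corresponds to a level 101-fold lower in the clone, with an interval of 64.9 to 158 per the authors' deposited table. The fold is a fitted value, and as no counts were given it is not known how many Nfatc2 reads the clone library held. After 2 weeks of UV, Nfatc2 stood at -0.086 (interval -0.28 to 0.11, adjusted p = 0.907) per the authors' deposited table. After 5 weeks it stood at -0.25 (interval -0.57 to 0.065, adjusted p = 0.588) per the authors' deposited table. Both UV intervals lie far from the clone's, which ran from -7.30 to -6.02. After 2 weeks, 8.57% of genes had a lower SE than Nfatc2, so it was measured there with more precision than most genes.

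The fall of Nfatc2 stood out in the whole table of the clone. It was the largest of all 7708 genes with values of their own and an SE of at most 0.5. The next largest was that of the chemokine gene Cxcl10, at -4.89 (SE 0.15) per the authors' deposited table. Over all 15041 rows, which include genes with very wide errors, Nfatc2 ranked 11 by change and 8 by p-value.

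**Figure D2:**
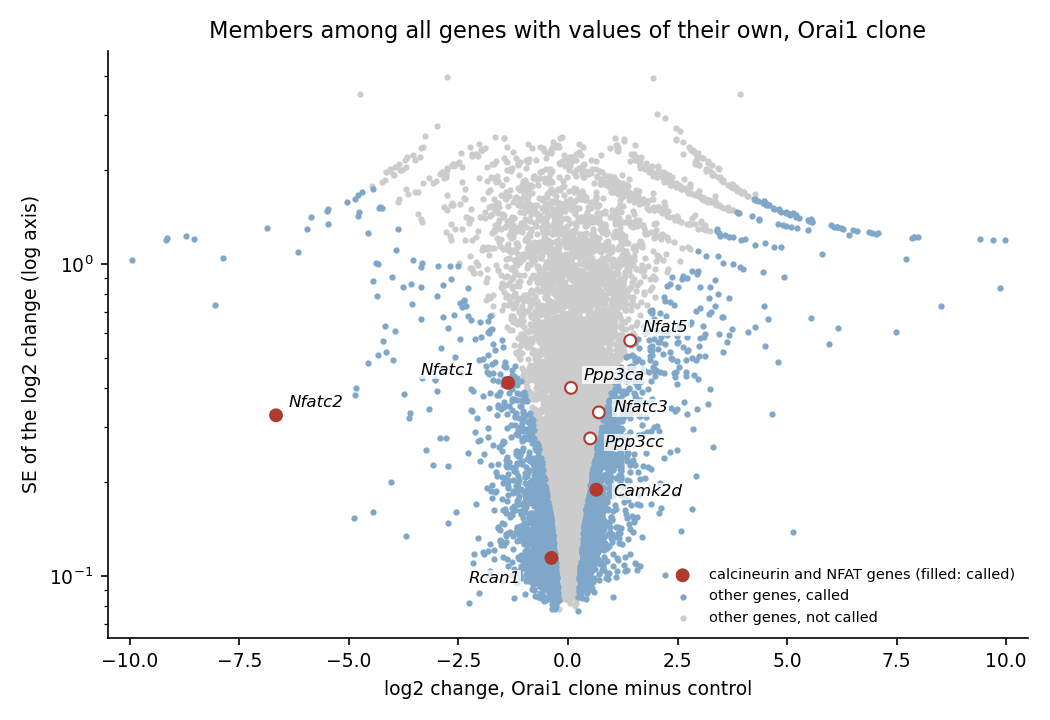
Log2 change in the Orai1 clone against untreated B16N (horizontal axis) and its SE (vertical log axis) for every gene with values of its own per the authors' deposited table. Large red points are calcineurin and NFAT genes, filled where the adjusted p was under 0.05. Nfatc2, at -6.66 with an SE of 0.33, lies left of all genes of similar or lower SE.

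Nfatc1, whose protein also takes part in bone, heart valve and hair follicle biology, fell in the clone by 1.36 on the log2 scale (SE 0.42, adjusted p = 0.00703) per the authors' deposited table. After 5 weeks of UV its value was -1.10 (interval -2.03 to -0.17, unadjusted p = 0.0206, adjusted p = 0.224) per the authors' deposited table. After 2 weeks it was -0.038 (interval -0.72 to 0.64) per the authors' deposited table. Nfatc1 was thus the single member with an unadjusted p under 0.05 after UV, and it did not pass over the whole table.

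Nfatc3, another calcineurin-controlled family member, stood at 0.70 in the clone (interval 0.049 to 1.36, adjusted p = 0.127) per the authors' deposited table. Its values after 2 and 5 weeks of UV were -0.025 (SE 0.35) and 0.22 (SE 0.42) per the authors' deposited tables. None of these passed the test, and the intervals allow changes of 1.5-fold or more in each table.

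Nfatc4 had a row in the table of the clone alone. There it shared its exact values (0.40, SE 4.08) with 743 other symbols per the authors' deposited table, among them the Ca2+ sensor gene Stim1. Of these 744 symbols, 404 had a row in neither UV table. An SE of this size leaves Nfatc4 without an interpretable change. How symbols came to share values is not given in the sources used here, and whether the same could touch rows with values of their own, Nfatc2 included, was not tested.

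Nfat5 differs from the NFATc proteins in that calcineurin does not control it. It is known for switching on genes that protect cells from high salt. In the clone Nfat5 stood at 1.42 (interval 0.31 to 2.53, adjusted p = 0.0552) per the authors' deposited table, just short of the threshold. It passed, with an adjusted p of 0.0470, when symbols that share their values with another were left out before adjustment. After 2 weeks of UV it stood at 0.99 (interval -0.24 to 2.21) and after 5 weeks at -0.48 (interval -2.27 to 1.31) per the authors' deposited tables. Nfat5 had the widest errors of the members with values of their own, and neither UV value passed the test.

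The catalytic subunits of calcineurin did not pass the test anywhere. Ppp3ca, the alpha subunit, stood at 0.25 (interval -0.52 to 1.01) after 2 weeks, 0.35 (interval -0.55 to 1.25) after 5 weeks and 0.069 (interval -0.72 to 0.85) in the clone per the authors' deposited tables. Ppp3cc, the gamma subunit, stood at 0.25 (interval -0.33 to 0.83), 0.28 (interval -0.42 to 0.98) and 0.51 (interval -0.033 to 1.05, adjusted p = 0.210) in the same order per the authors' deposited tables. The upper bounds pass 2-fold for Ppp3ca at both UV times and for Ppp3cc in the clone, so the intervals there include a 2-fold rise.

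Rcan1, the calcineurin inhibitor, was measured with the lowest SE of all members in each table. In the clone it fell by 0.38 on the log2 scale (SE 0.11, adjusted p = 0.00647) per the authors' deposited table, a level 1.30-fold lower with an interval of 1.11 to 1.52. After 2 weeks of UV it stood at 0.11 (interval -0.082 to 0.30) and after 5 weeks at 0.048 (interval -0.22 to 0.31) per the authors' deposited tables. At either UV time these intervals hold neither a rise nor a fall of 1.5-fold or more. The tables give 1 value per gene, so the Rcan1 transcripts from its separate promoters were not told apart.

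Camk2d encodes the delta subunit of CaMKII, a kinase that Ca2+ and calmodulin switch on in parallel with calcineurin. It rose by 0.65 in the clone (SE 0.19, adjusted p = 0.00450) per the authors' deposited table. After UV it stood at 0.26 (SE 0.19) at 2 weeks and 0.21 (SE 0.24) at 5 weeks per the authors' deposited tables. Among the members that changed in the clone, Camk2d was the one that rose. With a Bonferroni adjustment over the table, Nfatc2 alone still passed in the clone, and Nfatc1, Rcan1 and Camk2d did not.

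The treated samples were then set against each other, which cancels a control value common to both changes. Unless said otherwise, the SE of a difference still counts the error of the shared control, so it is an upper value and the intervals are wide. The clone had lower Nfatc2 than both UV samples, with a difference of -6.58 from 2 weeks of UV (SE 0.34, adjusted p = 1.45e-78) and of -6.41 from 5 weeks (SE 0.37, adjusted p = 5.78e-65) per the authors' deposited tables. The gap to either UV sample was thus close to that to the untreated line. Rcan1 was lower in the clone than after 2 weeks of UV by a difference of -0.49 (SE 0.15, adjusted p = 0.0130) per the authors' deposited tables. Against 5 weeks its difference was -0.43 (interval -0.77 to -0.080), which did not pass (adjusted p = 0.169) per the authors' deposited tables. It passed there, with an adjusted p of 0.0174, when the shared control was allowed for in the SE.

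The difference for Nfatc1 was -1.33 between the clone and 2 weeks of UV (interval -2.39 to -0.27, adjusted p = 0.0896), which did not pass, and -0.26 between the clone and 5 weeks (interval -1.50 to 0.97) per the authors' deposited tables. The first passed, with an adjusted p of 0.00878, when the shared control was allowed for. For Camk2d the differences of the clone from 2 and 5 weeks of UV were 0.39 and 0.44 per the authors' deposited tables, and neither passed. In all, 2 of 8 members differed between the clone and 2 weeks of UV, both lower in the clone, where 13.2% of all genes tested differed and 7.98% were lower in the clone. Between the clone and 5 weeks of UV, 1 of 8 differed, lower in the clone, where 6.18% of all genes differed and 4.69% were lower in the clone.

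Between 5 and 2 weeks of UV, 0 of 8 members differed by the adjusted normal test, and 0 had an unadjusted p under 0.05, where 3.75% of all genes passed. The largest differences by fitted value were those of Nfat5 (-1.46, interval -3.63 to 0.71) and Nfatc1 (-1.06, interval -2.21 to 0.090) per the authors' deposited tables. For Rcan1 the difference was -0.063 (interval -0.39 to 0.26) per the authors' deposited tables. The intervals of Nfat5 and Nfatc1 are wide and that of Rcan1 is narrow.

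**Figure D3:**
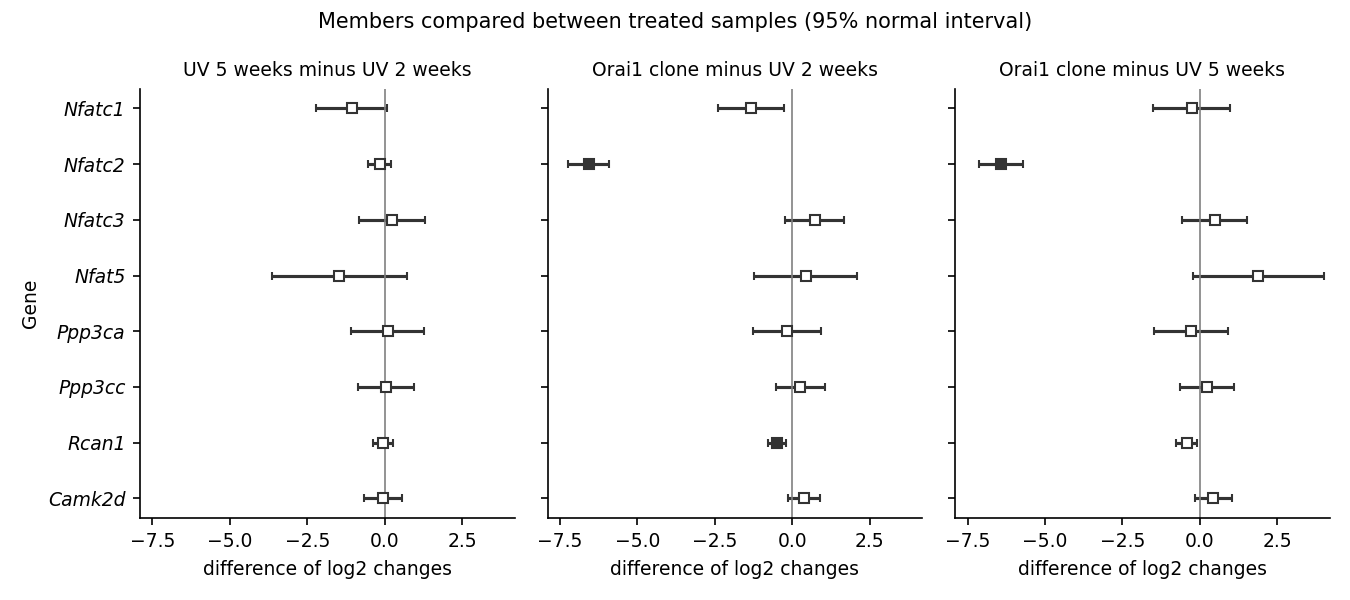
Difference of log2 changes (horizontal axis) for each gene (rows) between 5 and 2 weeks of UV, between the Orai1 clone and 2 weeks of UV, and between the clone and 5 weeks of UV, with 95% normal intervals. Filled squares passed an adjusted p of 0.05. The shared control is not allowed for in these intervals. Nfatc2 is filled in both panels of the clone, at -6.58 and -6.41, Rcan1 against 2 weeks alone, and no gene is filled between the UV times.

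Genes around calcineurin and NFAT were read from 8 lists of 101 genes in all. Symbols that shared their values with another symbol are counted apart. The counts of each list stand beside the shares of all genes called. These were 7.67% after 2 weeks of UV, 4.78% after 5 weeks and 22.0% in the clone (10.3% higher and 11.6% lower). Those shares were taken over all rows, of which 4233, 4339 and 4382 had shared values. The list counts cover genes with values of their own, so the bases are unlike. In the clone, 32.6% of rows with an SE of at most 0.5 were called. Calcineurin needs a regulatory subunit, encoded by Ppp3r1, and calmodulin, whose genes include Calm2 and Calm3. Calm2 did not pass the adjusted test in any table, with an unadjusted p under 0.05 after 5 weeks of UV alone. Ppp3r1 had a called rise of 1.22 in the clone (SE 0.14) per the authors' deposited table, but 2300009A05Rik held exactly the same values in all 3 tables. Calm3 likewise had a called fall of 0.47 on the log2 scale after 5 weeks of UV (SE 0.12) per the authors' deposited table, with the values of Rwdd2a. Which of the symbols such values belong to cannot be told.

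Of 5 calcineurin binding proteins with values of their own, 2 rose in the clone and 0 fell, where 10.3% of all genes rose, and the list's median was 0.36. They were Ppia (1.10, SE 0.23) and Fkbp1a (0.36, SE 0.13) per the authors' deposited table. These encode cyclophilin A and FKBP12, the partners through which cyclosporin and tacrolimus block calcineurin. In the clone, 4 of the 5 had an unadjusted p under 0.05. Besides Ppia and Fkbp1a they were Cabin1 (0.60, SE 0.24, adjusted p = 0.0547) and Rcan3 (-0.26, SE 0.12, adjusted p = 0.117) per the authors' deposited table. Neither Cabin1 nor Rcan3 passed the adjusted normal test. After UV 0 passed by the adjusted normal test, with 0 at an unadjusted p under 0.05 after 2 weeks and 2 after 5 weeks. Their list also holds Akap1, which anchors signalling enzymes and passed as lower after 2 weeks (-0.37, SE 0.12) per the authors' deposited table, with the values of Ogfod3.

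Of 10 kinases that phosphorylate NFAT with values of their own, 2 fell and 1 rose in the clone, near the 22.0% of all genes called there, with a list median of -0.014. After 5 weeks of UV 2 fell, where 4.78% of all genes changed. After 2 weeks 0 passed by the adjusted normal test, with 1 at an unadjusted p under 0.05. Csnk1e, a casein kinase 1 gene, fell in the clone by 1.38 on the log2 scale (adjusted p = 9.61e-35) and by 0.71 after 5 weeks (adjusted p = 1.67e-04) per the authors' deposited tables. Dyrk1a, which primes NFAT for further phosphorylation, fell by 1.37 in the clone (adjusted p = 3.42e-11) and by 0.92 after 5 weeks (adjusted p = 0.0103) per the authors' deposited tables. Dyrk2, of the same kinase family, rose by 0.75 in the clone (adjusted p = 2.54e-05) per the authors' deposited table. Gsk3a and Gsk3b, which encode the GSK3 kinases, stood at -0.075 (SE 0.17) and 0.19 (SE 0.16) in the clone per the authors' deposited table and did not pass. Mapk8, the JNK1 gene, had a called fall of 0.89 in log2 terms for the clone (SE 0.15) per the authors' deposited table, with the values of Zkscan16.

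Among other Ca2+/calmodulin kinases, Camkk2 alone passed, and it was lower in all 3 tables. These share the untreated library, so they are not 3 independent falls. The list of these kinases also holds Camk2n1 and Camk2n2, which encode inhibitors of CaMKII and are not kinases. The Camkk2 protein activates CaMKI, CaMKIV and AMPK. Camkk2 stood at -0.33 after 2 weeks (SE 0.11, adjusted p = 0.0278), -0.77 after 5 weeks (SE 0.16, adjusted p = 2.28e-04) and -1.26 in the clone (SE 0.12, adjusted p = 1.23e-22) per the authors' deposited tables. The fall was larger in the clone than after 2 weeks (difference -0.93, adjusted p = 4.26e-07), while the difference between the UV times (-0.44) did not pass (adjusted p = 0.269) per the authors' deposited tables. The difference of the clone from 5 weeks was -0.49 (adjusted p = 0.176) per the authors' deposited tables. Of the 5 or 6 measured genes of this list with values of their own, no other passed.

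Of 9 other calcineurin substrates with values of their own, 3 fell and 0 rose in the clone, where 11.6% of all genes fell, and the list's median was -0.36. Elk1, a transcription factor gene, fell by 0.60 (SE 0.15), Dnm1l, whose protein divides mitochondria, by 0.57 (SE 0.11) and Mef2a, a transcription factor gene, by 0.48 (SE 0.18) on the log2 scale per the authors' deposited table. After 2 weeks of UV 1 of 10 fell, where 7.67% of all genes changed, namely the CREB coactivator gene Crtc1 (-0.44, SE 0.13) per the authors' deposited table. After 5 weeks 0 of 10 passed by the adjusted normal test, where 4.78% of all genes did, and Dnm1l alone had an unadjusted p under 0.05 (0.0290) per the authors' deposited table.

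NFAT binds DNA together with AP-1 proteins and other partners. Of 8 listed partner genes with values of their own, 3 rose and 2 fell in the clone, where 22.0% of all genes changed. The list's median was 0.83. Those that passed were all AP-1 genes, but most of the 8 are AP-1 genes, so this is not a separate result. The AP-1 gene Fosl2 (-0.44 in the clone) passed in no table, and neither did Gata2 (1.22) or Ep300 (0.44) per the authors' deposited tables. Gata2 had wide errors, with an SE of 2.17 for the difference of the clone from 5 weeks of UV. Fosb (5.55, SE 0.67), Fos (1.96, SE 0.30) and Junb (1.48, SE 0.14) rose, and Jund (-0.78, SE 0.11) and Jun (-0.51, SE 0.11) fell per the authors' deposited table. After 2 weeks of UV, 2 of 8 rose, Fos and Junb, where 7.67% of all genes changed. After 5 weeks 0 of 8 passed by the adjusted normal test, with 0 at an unadjusted p under 0.05, where 4.78% of all genes passed.

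Of 11 known NFAT targets other than Rcan1 with values of their own, 4 fell and 2 rose in the clone, where 11.6% of all genes fell and 10.3% rose. Gpc6, a glypican gene known as an NFAT target in human breast cancer cells, fell by 4.56 on the log2 scale (SE 0.48) per the authors' deposited table. The cyclin D1 gene Ccnd1 fell by 1.83 (SE 0.12), the protease gene Adamts1 by 1.78 (SE 0.10) and the growth regulator Myc by 0.87 (SE 0.13) per the authors' deposited table. Ccn1, a matricellular protein gene, rose by 2.22 (SE 0.10) and the nuclear receptor gene Nr4a1 by 1.53 (SE 0.42) per the authors' deposited table. The list's median in the clone was 0.071, against 0.033 over all genes with values of their own.

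After 5 weeks of UV, 2 of 11 NFAT targets fell and 1 rose, where 4.78% of all genes changed. Myc fell by 1.34 (SE 0.20) and Adamts1 by 0.64 (SE 0.15) on the log2 scale, and Ccn1 rose by 0.79 (SE 0.13) per the authors' deposited table. After 2 weeks, when 7.67% of all genes changed, Nr4a3 rose (1.38, SE 0.42) and Adamts1 fell (-0.48, SE 0.070) per the authors' deposited table. Adamts1 was therefore lower in all 3 tables, which share the untreated library and so are not independent. Vegfa and Enpp2 also passed in some tables, but with the values of Vwf and Gdpd4. The osmotic targets of Nfat5 had 1 of 5 members changed in each table, where 7.67%, 4.78% and 22.0% of all genes changed after 2 weeks of UV, after 5 weeks and in the clone. With 5 members, 1 call is near the share over all genes in the clone. These were the aldose reductase gene Akr1b3, which rose by 0.61 in the clone (SE 0.15), and the amino acid transporter gene Slc38a2, which fell by 0.55 after 2 weeks (SE 0.071) and rose by 0.53 after 5 weeks (SE 0.13) per the authors' deposited tables.

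**Figure D4:**
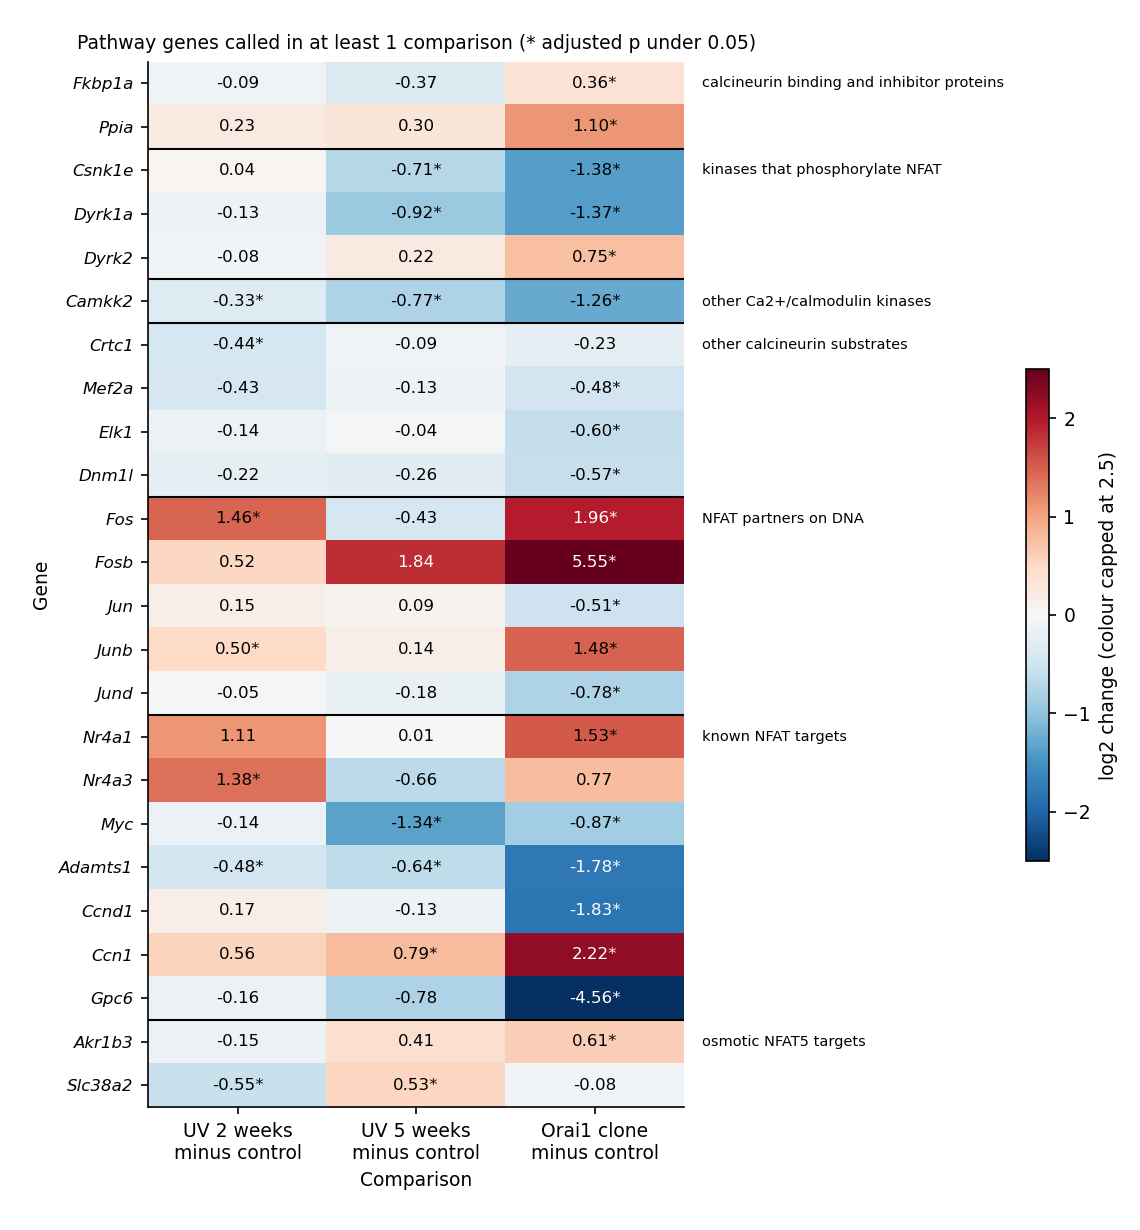
Log2 change against untreated B16N per the authors' deposited tables for each pathway gene with values of its own that passed in at least 1 comparison (rows, grouped by list), after 2 and 5 weeks of UV and in the Orai1 clone (columns). Stars mark an adjusted p under 0.05 and colour is capped at 2.5. Camkk2 and Adamts1 are starred and below 0 in all 3 columns, which share the untreated library. Most stars stand in the column of the clone.

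Genes whose 3 changes lay closest to those of a member were sought among 7168 genes with values of their own and an SE of at most 0.5 in each mouse table. Nearness was the Euclidean distance over the 3 log2 changes, which share the untreated library. The nearest to Nfatc2 were the zinc finger gene Zfp469, Gpc6 and Prkg2, which encodes a cGMP-dependent kinase. Their distances were 1.84, 2.16 and 2.63. Their changes in the clone were -4.83, -4.56 and -4.45 per the authors' deposited table, beside -6.66 for Nfatc2. Prkg2 also differed from Nfatc2 after UV, at 0.47 after 2 weeks and -1.55 after 5 weeks per the authors' deposited tables, beside -0.086 and -0.25 for Nfatc2. Among genes measured this well, none came nearer to Nfatc2 than 1.84. A wide distance follows from its fall in the clone being the largest among them, so it is not a separate result.

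For the other members that changed in the clone, the nearest genes lay much closer. Nfatc1 lay closest to Daam1, a formin gene, at a distance of 0.083, then to Pcdhb17 and Zbtb26. Rcan1 lay closest to Dgki, a diacylglycerol kinase gene, at 0.038, then to Ccdc115 and Tmem251. Camk2d lay closest to Herc6, at 0.064, then to Tysnd1 and Hsbp1.

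In the human lines, 4 of the 101 pathway genes were found among the 420 symbols that both tables hold, namely CCND1, CRTC1, EGR3 and GSK3A. The direction of the human fold changes could not be checked, so their signs are given as deposited. For UV-exposed WM983 and its control they were -1.79, -1.02, -2.69 and -1.21, each at the table's smallest p of 5.00e-05, per the authors' deposited table. That p was held by 351 of its 420 rows. For UACC257 the values were 0.27, 0.019, 0.19 and -0.28, with p-values from 0.0544 to 0.898, per the authors' deposited table. For UACC257, 42 of 420 rows had a p under 0.05, against 418 of 420 for WM983. As nearly all rows of this common set were under 0.05 for WM983, these counts cannot compare the lines. For the same reason, the small p of the 4 genes in WM983 does not set them apart. How the 420 symbols were chosen was not tested.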

How the data were processed

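The authors deposited 5 comparison tables, each with a log2 fold change, a test statistic (a score) and a p-value per gene, per the file headers. The submitters' processing notes name GRCm38, and for the aligner, counter and test, names are not given in the sources used here. In the mouse tables all 1357 genes with a row in a single table had a negative deposited log2 value, which puts the control in the numerator, so signs were turned. A normal distribution, read from both tails, turns the deposited score into the deposited p-value within 5.0e-08, so the score was taken as change over SE. A row without a symbol, and 3 rows of the clone without a p-value, were left out, leaving 14648, 14821 and 15041 genes for the earlier UV time, the later one and the clone. Differences between treated samples were tested with a two-sided normal test, both SE added in squares, over 10166, 10218 and 10278 genes with values of their own, adjusted by Benjamini-Hochberg. Members and lists were chosen with earlier results of these data known. From the lists, genes that passed were named, up to 6 per list and comparison. Gsk3a, Gsk3b, Calm2 and Cxcl10 were named after their values were seen. The procedure was tested on simulated data. The design allowed for counts, and none were used. Python 3.11.15, numpy 2.4.6, pandas 2.3.3, scipy 1.17.1 and matplotlib 3.10.9 were used. No sequences are shown.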

Additional observations from a re-analysis of the deposited data

Results flagged for a closer look

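In the test of the difference between UV times, 3 pathway genes passed and none of the 8 calcineurin and NFAT genes tested. Of all genes tested, 3.75% passed. Values of their own in all 3 mouse tables were held by 55 pathway genes. This test needed them at the UV times alone, so at least 55 were tested, and 3 calls are near the share over all genes. Csnk1e was lower after 5 weeks (-0.71) than after 2 weeks (0.042), a difference of -0.76 (adjusted p = 0.00120) in the authors' deposited tables. Myc was lower after 5 weeks (-1.34) than after 2 weeks (-0.14), a difference of -1.20 (adjusted p = 2.21e-05) in the authors' deposited tables. Slc38a2 was higher after 5 weeks (0.53) than after 2 weeks (-0.55), a difference of 1.08 (adjusted p = 1.88e-10) in the authors' deposited tables. With 1 library per time, the difference between times cannot be told apart from that between libraries.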

How the results depend on the processing

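The counts of members that passed were recomputed under adjusted p-values under 0.01, fold minimums of 1.5 and 2, Bonferroni adjustment, an SE of at most 0.5, symbols of shared values left out or kept, a median change set to 0 and, for differences, a shared control subtracted. In the clone, 4 members became 2 with a 2-fold minimum (Nfatc1 and Nfatc2), which 6.79% of all genes passed, and 1 with Bonferroni adjustment (Nfatc2). Between the clone and 2 weeks of UV, 2 became 1 at an adjusted p under 0.01, Rcan1 being lost. Between the clone and 5 weeks of UV, 1 became 2 with the shared control subtracted, Rcan1 being gained. The other 33 recomputed counts stayed within 1.5 times, and no called change turned its direction. Nfatc2 passed in the clone under every alternative run. No paired analysis was possible because each group has 1 sample, and for the same reason no replicate could be left out. Precision rests on the deposited statistic alone, since depth is unknown, and the SEs of Nfat5 allow several-fold changes.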

Other observations

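Values shared between symbols were frequent in the mouse tables and touched the calcineurin pathway. Of 14648, 14821 and 15041 genes, 4233, 4339 and 4382 shared their exact log2 change and statistic with at least 1 other symbol after 2 weeks of UV, after 5 weeks and in the clone. A row was present in each mouse table for 75 pathway genes, of which 55 always had values of their own. A further 11 had, in all 3 tables, the values of 1 and the same other symbol. Several of these pairs join genes with unlike names and products, such as Vegfa with Vwf, Mapk8 with Zkscan16 and Enpp2 with Gdpd4. The regulatory subunit gene Ppp3r1, at 1.22 in the clone in the authors' deposited table, is among the 11. Of the 9 calcineurin and NFAT genes found, Nfatc4 alone shared its values, and whether the symbols of the other 8 were assigned correctly was not tested.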
